A study of Mus musculus with 30 samples.

Results

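The matrix metalloproteinases, the ADAM and ADAMTS proteases and the tissue inhibitors of metalloproteinases (TIMPs) were followed in CD11b+ myeloid cells of tumor-bearing mice and in bone marrow cultures. The members were the genes of the array annotation whose symbol is Mmp, Timp, Adam or Adamts followed by a number and at most 1 letter, apart from a pair of matrix metalloproteinases that were left out by name. Each member was read from its probe set with 1 gene symbol and the highest mean over the 30 arrays. This gave 63 members among 18194 measured genes, namely 16 Mmp, 4 Timp, 28 Adam and 15 Adamts genes. Mmp15, Mmp21, Mmp25, Mmp27, Mmp28, Adamts2 and Adamts14 were not analysed here.

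The arrays were Affymetrix MOE430 2.0 arrays of CD11b+ cells drawn with magnetic beads, in 10 groups of 3. In BALB/c mice the cells came from the spleen of mice bearing C26-GM, a colon carcinoma that secretes GM-CSF, from C26-GM tumors, from tumors of the mammary carcinoma 4T1, and from the spleen of healthy mice. In C57BL/6 mice they came from tumors of the lymphoma EL-4, from tumors of the fibrosarcoma MCA203, and from the spleen of healthy mice. Cultured cells were BALB/c bone marrow cells kept for 4 days with GM-CSF plus IL-6 or with GM-CSF plus G-CSF, and fresh BALB/c marrow stood beside them. Healthy spleen of the strain was the series' control for cells of tumor-bearing mice, and fresh marrow was the control for the cultures. For the C57BL/6 healthy spleens the title and the strain field were followed, since another label of these 3 arrays names BALB/c. The labels give no age and no number of animals behind an array, so p-values measure the spread between these arrays, which may be technical. A tumor infiltrate had no normal counterpart other than spleen, so tumor and organ cannot be told apart in those comparisons.

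Matrix metalloproteinases are zinc enzymes that are made as inactive precursors and, once the propeptide is removed, cut collagens, elastin, proteoglycans and many signalling proteins. TIMPs are secreted proteins that occupy their active site. ADAMs sit in the cell membrane and release the outer part of other membrane proteins, such as the cytokine TNF and ligands of the EGF receptor, while ADAMTS enzymes are secreted and cut proteoglycans and procollagens. CD11b+ cells of tumors, a mixture of neutrophils, monocytes and macrophages, are a known source of several of these enzymes.

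Values are log2 RMA expression, on which a difference of 1 is 2-fold. Array medians lay between 4.85 and 5.15, and correlations between arrays of a group lay between 0.945 and 0.996. The summed linear level of 6 markers of CD11b+ myeloid cells, Itgam among them, lay between 23769 and 37698 on all arrays. Some arrays stood apart. On the third C26-GM tumor array the 3' probe set of actin exceeded the 5' probe set by 2.42, against 0.0105 to 0.681 on the other 29 arrays. The 6 C26-GM arrays had Xist at 5.15 to 6.47 and the Y-linked Eif2s3y at 8.11 to 8.95, against 10.1 to 11.1 and 2.16 to 2.70 on the other 24 arrays, so C26-GM and the sex of the mice cannot be told apart. Of the 6 culture arrays, 4 had an interquartile range of 2.54 to 2.60 (the first and second with IL-6, the first and the third with G-CSF). The other 2 culture arrays had 3.28 and 3.37, and fresh marrow had 3.11 to 3.21.

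A block of matrix metalloproteinase genes lies side by side on mouse chromosome 9, in the order Mmp13, Mmp12, Mmp1b, Mmp3, Mmp1a, Mmp10, Mmp20 and Mmp7 for the members, between Dcun1d5 and Tmem123. Collagenase and stromelysin promoters are known for an element of the AP-1 family, TGAGTCA, read on the other strand as TGACTCA. RefSeq windows of GRCm38.p6, from 250 bases before to 50 bases after the annotated start, were found for 36 members, and the other 27 had none. In the 100 bases before the start, either spelling of the element occurred in 7 of the 8 chromosome 9 Mmp members, in 0 of the other 28 members and in 2.19% of 27025 genes. Within the whole 300 bases it occurred in 2 of the other 28 members, Adam1b and Adam19, and in 5.95% of genes. The letters TATAAA or TTTATA, the core of a TATA box, occurred in the same 100 bases of 7 of the 8 chromosome 9 Mmp members, of 1 other member and of 6.57% of genes. A match of letters is a description of the window and says nothing of binding in these cells.

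The 100 bases before the start are shown 5′ to 3′ for 8 members, with the AP-1 letters in capitals. The first 4 are the chromosome 9 Mmp genes that were called in the tumor or culture comparisons described next. Mmp1a and Mmp7 carry the element and were called in none of the comparisons made. Mmp20 is the member of the chromosome 9 Mmp block without it, and Mmp14, on chromosome 14, rose in every infiltrate without it.
Mmp13: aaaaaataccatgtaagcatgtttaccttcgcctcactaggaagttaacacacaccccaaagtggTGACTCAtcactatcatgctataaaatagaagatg
Mmp12: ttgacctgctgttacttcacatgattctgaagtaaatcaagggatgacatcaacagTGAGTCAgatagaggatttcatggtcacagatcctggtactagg
Mmp3: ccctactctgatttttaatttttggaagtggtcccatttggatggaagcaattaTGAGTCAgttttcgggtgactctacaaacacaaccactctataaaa
Mmp10: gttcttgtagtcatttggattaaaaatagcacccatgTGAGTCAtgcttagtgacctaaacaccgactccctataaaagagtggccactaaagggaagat
Mmp1a: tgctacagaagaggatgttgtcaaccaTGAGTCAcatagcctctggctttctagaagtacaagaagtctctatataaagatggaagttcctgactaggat
Mmp7: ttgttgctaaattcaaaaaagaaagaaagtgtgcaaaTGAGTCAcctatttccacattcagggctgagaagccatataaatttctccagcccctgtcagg
Mmp20: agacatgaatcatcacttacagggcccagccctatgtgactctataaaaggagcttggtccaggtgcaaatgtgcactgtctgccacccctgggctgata
Mmp14: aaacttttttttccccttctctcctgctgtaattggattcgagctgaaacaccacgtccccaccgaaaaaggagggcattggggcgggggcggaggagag
All 8 are on the plus strand of GRCm38.p6. They lie at chr9:7272414-7272513 for Mmp13, chr9:7347274-7347373 for Mmp12, chr9:7445722-7445821 for Mmp3, chr9:7502242-7502341 for Mmp10, chr9:7464041-7464140 for Mmp1a, chr9:7691990-7692089 for Mmp7, chr9:7628131-7628230 for Mmp20 and chr14:54431498-54431597 for Mmp14. The element began 35 bases before the start in Mmp13, where it stands in the reverse spelling. It began 44 bases before it in Mmp12, 46 in Mmp3, 63 in Mmp10 and in Mmp7, 73 in Mmp1a, and 93 in Mmp1b, whose window on the minus strand is not shown. RefSeq lists 2 windows each for Mmp12 and Mmp7. For both genes the window with the element was chosen for display, and the other window had no match. In the counts given before, a gene was taken where any of its windows held the letters.

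Members were more often higher than lower in cells from tumors. A gene was called where limma gave an adjusted p below 0.05 over all 18194 genes and a change of at least 2-fold. In C26-GM tumor infiltrates 10 members rose and 2 fell (19% of members called, beside 11.4% of all genes, 4.26% higher and 7.13% lower). In 4T1 infiltrates 14 rose and 3 fell (27%, beside 12.3% of all genes, 6.83% higher and 5.44% lower). In EL-4 infiltrates 13 rose and 4 fell (27%, beside 10.8%, 6.42% higher and 4.4% lower). In MCA203 infiltrates 10 rose and 4 fell (22.2%, beside 10.4%, 5.01% higher and 5.42% lower). The direction over all genes depended on centring. Of all called genes 50.7%, 45.7%, 37.8% and 33.5% were higher after centring on housekeeping genes, in that order of tumors. Without centring these shares were 37.4%, 55.7%, 59.3% and 48.0%.

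The spleen of C26-GM mice and the cultures had fewer. In the C26-GM spleen 3 members rose and 3 fell (9.52%, beside 6.14% of all genes, 2.32% higher and 3.83% lower). In the IL-6 culture 5 rose and 2 fell (11.1%, beside 14.1%, 5% higher and 9.07% lower), and in the G-CSF culture 5 rose and 2 fell as well (11.1%, beside 13.9%, 4.48% higher and 9.37% lower). After centring on housekeeping genes the IL-6 culture had 4 of each. These shares of members in the cultures lay below those of all genes, but the count of members moved with the processing. With G-CSF it was 11 after repeated quantile normalization. Leaving out single arrays gave 6 to 10 members with IL-6 and 7 to 10 with G-CSF. The difference between the shares was not tested. The median log2 change over the 63 members was 0.05 to 0.30 in the 7 comparisons, beside -0.01 to 0.14 over all genes. An adjusted p below 0.05, at any size of change, was reached by 8 to 23 of the 63 members in these comparisons. The share of all genes at this threshold is not given, so that count says nothing particular to the members.

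**Figure D1:**
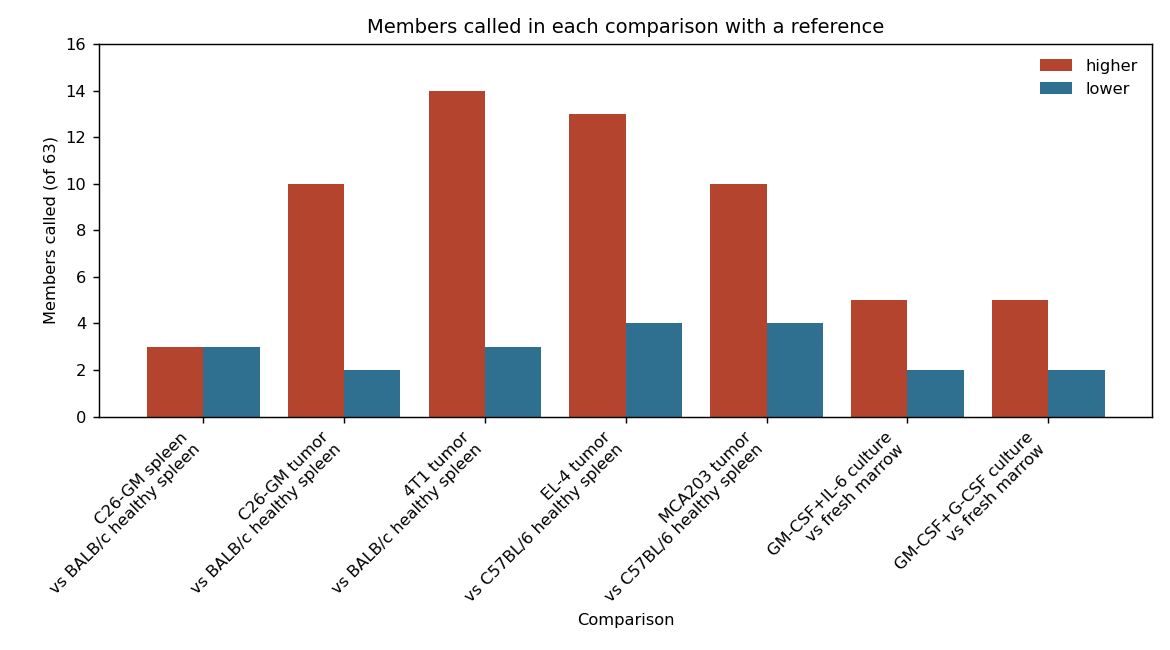
Number of the 63 members called higher (red) or lower (blue) in each of the 7 comparisons with healthy spleen or fresh marrow. Rises outnumbered falls in the 4 infiltrates, with 10, 14, 13 and 10 rises, and the C26-GM spleen had 3 of each.

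Of the 63 members, 23 were called in at least 1 of the 7 comparisons and 40 in none. Shares of all genes over several comparisons are not given, so these and later counts of this kind have no background. Higher in all 4 infiltrates were Mmp12, Mmp13, Mmp14, Mmp19, Timp1 and Adam9. Higher in 3 of them were Mmp2, Mmp10 and Adamts1, and higher in 2 were Mmp3, Adam8, Adamts4 and Adamts9. Lower in all 4 were Adam22 and Adam23, lower in 3 was Adam19 and lower in 2 was Adam11. The 2 BALB/c infiltrates share their healthy spleens, as do the 2 C57BL/6 infiltrates, so these counts are not 4 separate tests. Within a strain each comparison's own values are given side by side.

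**Figure D2:**
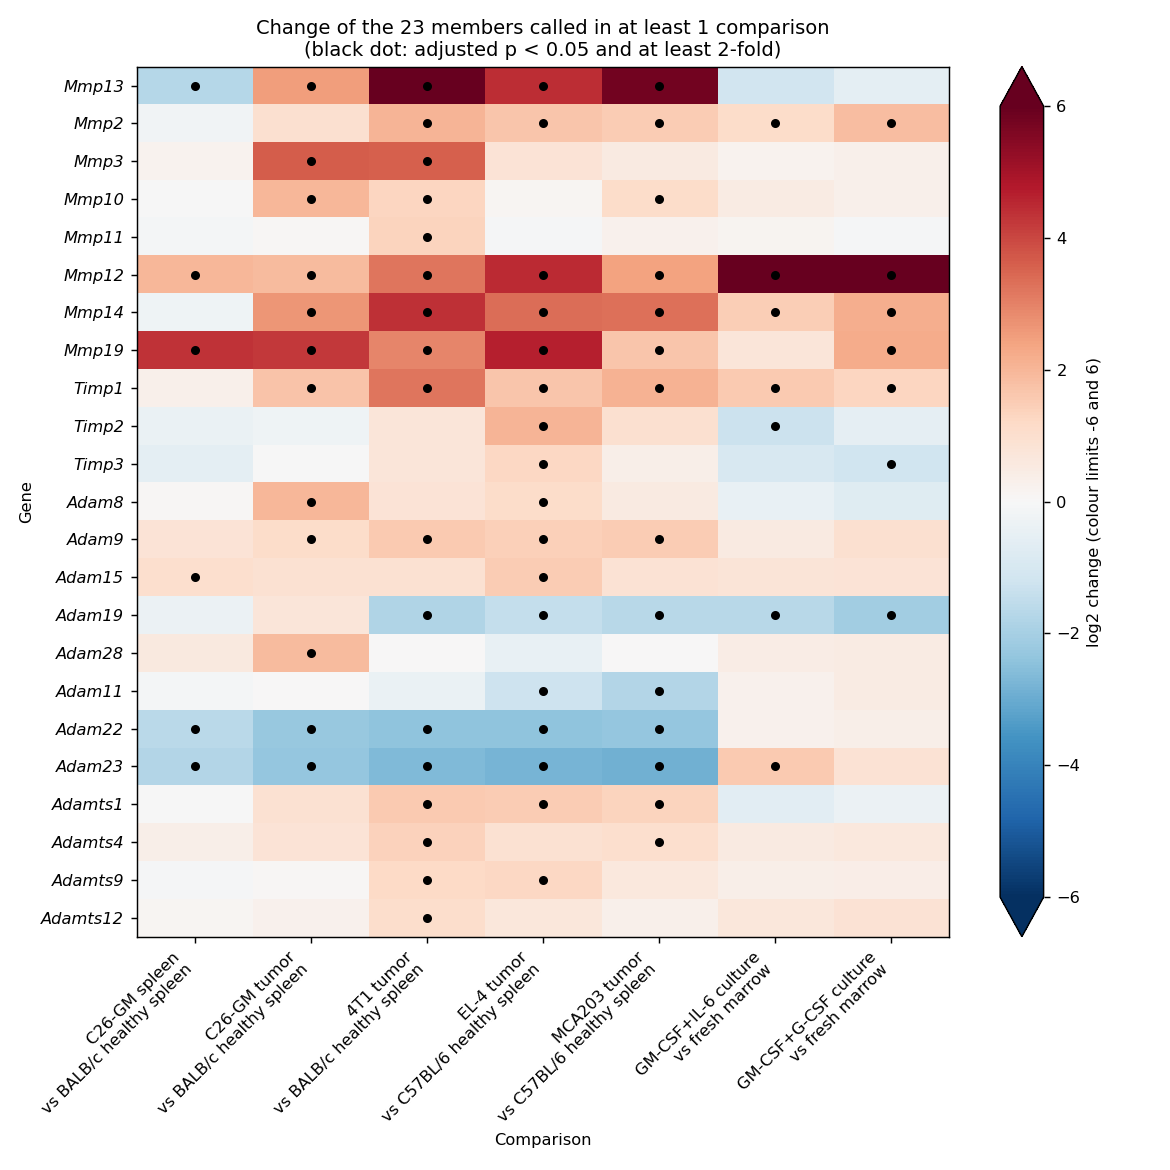
Log2 change (colour, limits -6 and 6) of the 23 members called in at least 1 of 7 comparisons, with a black dot where adjusted p was below 0.05 and the change at least 2-fold. Mmp13, Mmp14, Mmp12 and Mmp19 are red in all 4 infiltrates, Mmp12 darkest in both cultures, and Adam22 and Adam23 are blue in the 5 tumor-bearing groups.

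Many members were dim. A member passed the filter on low values where its highest group mean reached 5.11, the 40th percentile of all group means. That held for 10 Mmp, 4 Timp, 13 Adam and 5 Adamts genes, 32 in all. Of those, 11 were called in no comparison: Mmp7, Mmp23, Mmp24, Timp4, Adam10, Adam17, Adam21, Adam33, Adamts8, Adamts10 and Adamts16. The other 31 members lay below it. They were Mmp1a, Mmp1b, Mmp11, Mmp16, Mmp17 and Mmp20 among the Mmp genes, and Adamts3, Adamts4, Adamts5, Adamts6, Adamts7, Adamts12, Adamts15, Adamts18, Adamts19 and Adamts20 among the Adamts genes. The Adam genes below it were Adam1a, Adam1b, Adam2, Adam3, Adam5, Adam6a, Adam6b, Adam7, Adam12, Adam18, Adam24, Adam25, Adam26a, Adam32 and Adam34, several of which are known from testis and sperm. Of these 31, Mmp11, Adamts4 and Adamts12 were called in some comparison and 28 in none.

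Among the collagenases, Mmp13, which opens the triple helix of fibrillar collagen, rose in every infiltrate. Its log2 level was 6.25, 6.97 and 8.40 on the C26-GM tumor arrays and 10.83, 10.60 and 10.79 on the 4T1 tumor arrays, against 4.90, 4.69 and 4.49 in BALB/c healthy spleen. It was 7.98, 9.26 and 8.01 in EL-4 tumors and 9.68, 10.07 and 9.52 in MCA203 tumors, against 4.04, 3.60 and 4.29 in C57BL/6 healthy spleen. All tumor arrays lay above all healthy arrays of their strain, and the third C26-GM tumor array was the highest of its group. The log2 change was 6.04 ± 0.47 (SE, adjusted p = 8.8e-11, 65.9-fold) in 4T1 and 5.78 ± 0.47 (adjusted p = 2.42e-10) in MCA203. It was 4.44 ± 0.47 (adjusted p = 3.48e-08) in EL-4 and 2.51 ± 0.47 (adjusted p = 0.000151) in C26-GM tumors, where it was 1.91 without the third array. Mmp13 went the other way in the C26-GM spleen, at 2.92, 3.33 and 2.77 against the healthy values given before. All 3 lay below all healthy arrays, and the fall was -1.69 ± 0.47 (adjusted p = 0.0129), or -1.59 (adjusted p = 0.0547) without the first BALB/c healthy spleen array. The other collagenases, Mmp1a and Mmp1b, lay between 2.19 and 3.48 on every array and were called nowhere.

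Mmp2, the gelatinase that cuts denatured and basement membrane collagen, and Mmp14, the membrane-bound protease that activates its precursor, both rose in most infiltrates. Mmp14 read 7.93, 7.72 and 7.88 in C26-GM tumors and 9.74, 9.62 and 9.42 in 4T1 tumors, against 5.21, 5.17 and 5.19 in BALB/c healthy spleen. It read 9.21, 9.44 and 9.21 in EL-4 and 9.15, 9.32 and 9.25 in MCA203, against 5.73, 6.03 and 6.09 in C57BL/6 healthy spleen. The groups were far apart and narrow. The log2 change of Mmp14 was 2.66 ± 0.19 (adjusted p = 2.15e-11) in C26-GM tumors, 4.41 ± 0.19 (1.76e-15) in 4T1, 3.33 ± 0.19 (4.66e-13) in EL-4 and 3.29 ± 0.19 (2.99e-13) in MCA203. In the C26-GM spleen it was 4.71, 4.86 and 5.16, with a change of -0.27 that was not called. All 3 probe sets of Mmp14 rose in each infiltrate by at least 1.35.

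Mmp2 changed less. It read 6.66, 6.82 and 6.69 in 4T1, against 4.91, 4.61 and 4.51 in BALB/c healthy spleen. The groups did not overlap, and the change was 2.05 ± 0.23 (adjusted p = 8.85e-08). Mmp2 rose by 1.64 ± 0.23 in EL-4 and by 1.51 ± 0.23 in MCA203, and its 0.97 in C26-GM tumors stayed under 2-fold. That value was 1.09 without the first BALB/c healthy spleen array or without the second C26-GM tumor array, which made it a call. Of the other membrane-bound members, Mmp16, Mmp17 and Mmp24 were called in none of the comparisons.

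Markers of fibroblasts, which are known to make Mmp2, Mmp13 and Mmp14, moved in the same infiltrates. Of 10 such markers 4 rose and 1 fell in C26-GM tumors, 7 rose and 1 fell in 4T1, 6 rose in EL-4 and 5 rose in MCA203, and none was called in the C26-GM spleen. The collagen gene Col3a1 rose by 5.36 ± 0.52 in 4T1, 6.20 ± 0.52 in EL-4 and 6.17 ± 0.52 in MCA203, and by 1.95 ± 0.52 in C26-GM tumors. Summed linear levels of the list ran from 507 to 769 in C26-GM tumors and from 2026 to 2986 in 4T1, against 1051 to 1310 in BALB/c healthy spleen, where Postn alone read 9.65 to 9.99. They ran from 1801 to 2708 in EL-4 and from 1072 to 2633 in MCA203, against 242 to 272 in C57BL/6 healthy spleen. The number of the 10 markers whose group mean lay under 5.11 was 1 in C26-GM tumors, 1 in 4T1, 3 in EL-4 and 4 in MCA203, against 6 in BALB/c and 9 in C57BL/6 healthy spleen. Of 7 epithelial markers, which carcinoma cells carry too, 1 rose in C26-GM tumors, 6 in 4T1, 6 in EL-4 and 3 in MCA203. Their sums were 842 to 1220 in C26-GM tumors and 3419 to 5483 in 4T1, against 192 to 214 in BALB/c healthy spleen. They were 640 to 10557 in EL-4 and 737 to 1325 in MCA203, against 171 to 190 in C57BL/6 healthy spleen. In C26-GM tumors Cdh1 alone read 9.28 to 9.94, and it read 7.84 to 9.98 in the marrow cultures too. Krt8, Krt18 and Krt19 lay between 3.98 and 4.98 in C26-GM tumors, against 4.11 to 5.13 in BALB/c healthy spleen. Of 6 endothelial markers 1 rose in C26-GM tumors, 1 in 4T1, 2 in EL-4 and 1 in MCA203, where 1 also fell. The part of these cells in the rises of the enzymes was not tested.

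**Figure D3:**
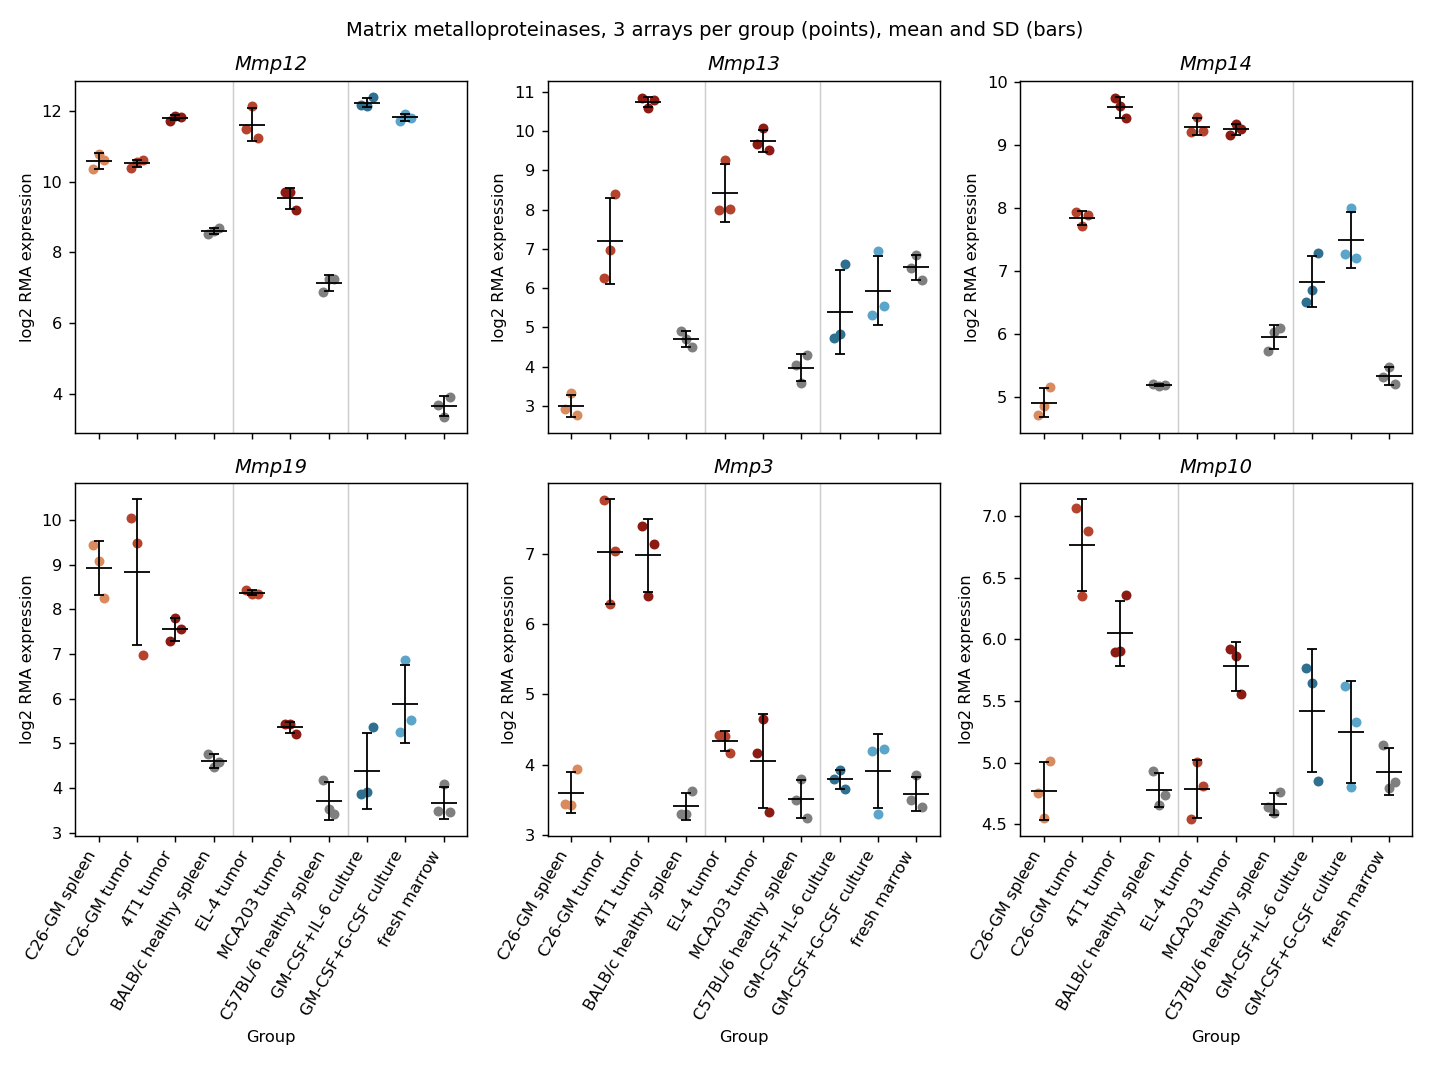
Log2 RMA expression of 6 matrix metalloproteinases on each of 3 arrays per group (points), with mean and SD (bars), in panels with axes of their own. In each panel the groups of a strain or tissue stand left of their healthy spleen or fresh marrow (grey), and the Mmp13 and Mmp14 points of all infiltrates lie above the grey ones of healthy spleen.

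The stromelysins Mmp3 and Mmp10, which cut proteoglycans, laminin and fibronectin and can activate other precursors, rose in both BALB/c infiltrates, and Mmp10 also in MCA203. Mmp3 read 7.76, 6.28 and 7.04 in C26-GM tumors and 7.39, 6.39 and 7.14 in 4T1, against 3.30, 3.30 and 3.63 in BALB/c healthy spleen. All 6 tumor arrays lay far above the healthy ones, and the changes were 3.62 ± 0.32 (adjusted p = 1.13e-09) and 3.57 ± 0.32 (1.46e-09). In EL-4 tumors Mmp3 read 4.43, 4.41 and 4.17 and in MCA203 tumors 4.17, 4.65 and 3.33, against 3.50, 3.79 and 3.25 in C57BL/6 healthy spleen. These changes, 0.82 and 0.54, were not called. The mean C57BL/6 tumor effect less the mean BALB/c tumor effect was -2.91 ± 0.39 for Mmp3 (adjusted p = 7.73e-06). Strain and tumor model cannot be told apart here, since no model was grown in both strains.

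Mmp10 read 7.07, 6.35 and 6.88 in C26-GM tumors and 5.89, 5.90 and 6.36 in 4T1, against 4.93, 4.66 and 4.74 in BALB/c healthy spleen. None of these tumor arrays overlapped with healthy ones, and Mmp10 rose by 1.99 ± 0.23 (adjusted p = 1.17e-07) and 1.27 ± 0.23 (8.33e-05). It rose by 1.12 ± 0.23 in MCA203 (0.93 after centring on housekeeping genes) and changed by 0.12 in EL-4, where it was not called. Mmp11, a stromelysin of stromal cells, was dim everywhere and rose in 4T1 tumors, at 5.22, 4.29 and 4.86 against 3.32, 3.44 and 3.55 in BALB/c healthy spleen (1.35 ± 0.18, adjusted p = 1.79e-06). The matrilysin Mmp7 was called in none of the comparisons.

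Mmp12, the elastase of macrophages, was called in all 7 comparisons, each time upward. In the C26-GM spleen it read 10.36, 10.79 and 10.61, in C26-GM tumors 10.39, 10.56 and 10.60 and in 4T1 tumors 11.73, 11.87 and 11.83, against 8.52, 8.60 and 8.69 in BALB/c healthy spleen. In EL-4 it read 11.48, 12.13 and 11.22 and in MCA203 9.71, 9.70 and 9.20, against 6.88, 7.26 and 7.26 in C57BL/6 healthy spleen. No tumor array overlapped with a healthy one. The changes were 1.99 ± 0.19 in the C26-GM spleen, 1.91 ± 0.19 in C26-GM tumors, 3.21 ± 0.19 in 4T1, 4.48 ± 0.19 in EL-4 and 2.40 ± 0.19 in MCA203, with adjusted p of 1.66e-08 or less. The spleen and the tumor of C26-GM mice did not differ by a called amount (-0.07). In a mixed CD11b+ sample more cells of a type and more RNA per cell cannot be told apart, here and for every member.

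Macrophage markers did not move with Mmp12 in every group. Of 7 such markers, 0 rose and 3 fell in the C26-GM spleen and 0 rose and 5 fell in C26-GM tumors, where Mmp12 rose. In 4T1 and in EL-4 1 rose and 0 fell, and in MCA203 3 rose and 0 fell. The summed linear level of the list was 17319 to 18310 in the C26-GM spleen, 8529 to 12091 in C26-GM tumors and 38807 to 43768 in 4T1, against 27672 to 29191 in BALB/c healthy spleen. It was 26743 to 35331 in EL-4 and 37283 to 44470 in MCA203, against 24821 to 29484 in C57BL/6 healthy spleen. Of 7 neutrophil markers 0 fell in the C26-GM spleen, 3 fell in C26-GM tumors, 4 in 4T1, and 7 in both EL-4 and MCA203.

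Mmp19, a secreted protease of basement membrane proteins, gave the largest change of any member in the C26-GM spleen. It read 9.44, 9.07 and 8.26 there and 10.04, 9.47 and 6.98 in C26-GM tumors, against 4.76, 4.46 and 4.58 in BALB/c healthy spleen. It read 7.29, 7.81 and 7.55 in 4T1 tumors. All 9 of these arrays lay above the healthy ones, but the third C26-GM tumor array was well under its group. The changes were 4.32 ± 0.51 (adjusted p = 5.67e-07, 20-fold) in the C26-GM spleen, 4.23 ± 0.51 (2.78e-07) in C26-GM tumors and 2.95 ± 0.51 (5.51e-05) in 4T1. Without the third tumor array the change in C26-GM tumors was 5.15, and without the first it was 3.62. In EL-4 Mmp19 read 8.43, 8.35 and 8.34 and in MCA203 5.43, 5.43 and 5.22, against 4.19, 3.52 and 3.42 in C57BL/6 healthy spleen. EL-4 rose by 4.66 ± 0.51 (7.03e-08) and MCA203 by 1.65 ± 0.51 (0.0183). The MCA203 call was lost on leaving out the second or the third C57BL/6 healthy spleen array (1.55 and 1.50, adjusted p = 0.068 and 0.0714). It was also lost without the first or second MCA203 array (1.61 each, adjusted p = 0.0533 and 0.052). The remaining Mmp genes, Mmp20 and Mmp23, were called nowhere.

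Of the inhibitors, Timp1, which blocks most secreted matrix metalloproteinases, rose in every infiltrate. It read 6.64, 6.31 and 6.93 in C26-GM tumors and 8.14, 7.76 and 8.51 in 4T1, against 5.23, 4.62 and 4.88 in BALB/c healthy spleen. In EL-4 it read 6.49, 6.91 and 6.76 and in MCA203 7.12, 7.41 and 6.85, against 4.94, 5.21 and 5.03 in C57BL/6 healthy spleen. Tumor and healthy arrays did not overlap. The rises were 1.72 ± 0.21 (adjusted p = 4.45e-07), 3.23 ± 0.21 (4.3e-12), 1.66 ± 0.21 (9.64e-07) and 2.06 ± 0.21 (2.28e-08), in that order of tumors. Timp1 read 4.80, 5.54 and 5.29 in the C26-GM spleen and overlapped with healthy spleen (0.30 ± 0.21, adjusted p = 0.416). Timp1 is X-linked, and the sex marker of the C26-GM arrays given before differs from that of healthy spleen, whose part here was not tested.

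Timp2, which inhibits Mmp2 and also takes part in its activation by Mmp14, rose by 2.02 ± 0.17 (adjusted p = 4.69e-10) in EL-4. It read 11.18, 11.97 and 11.60 there and 10.70, 10.26 and 10.60 in MCA203, against 9.63, 9.35 and 9.72 in C57BL/6 healthy spleen. Neither tumor overlapped with healthy spleen, though the MCA203 change (0.96, adjusted p = 7.53e-05) stayed under 2-fold. It passed it at 1.03 without the third C57BL/6 healthy spleen array and at 1.09 without the second MCA203 array. In 4T1 the change was 0.74 (adjusted p = 0.0011). The probe sets of Timp2 differed in C26-GM tumors, where the chosen one gave -0.25 and 4 of the 5 others gave between -1.03 and -1.76. Timp3, a matrix-bound inhibitor that also blocks Adam17, rose in EL-4 by 1.26 ± 0.27 (adjusted p = 0.000854), at 6.76, 5.81 and 6.25 against 4.95, 4.98 and 5.11 in C57BL/6 healthy spleen. Over the mean of its probe sets this was 0.82. In 4T1 the change was 0.74, and it was called at 1.02 without the first BALB/c healthy spleen array. Timp4 was called nowhere, with changes of -0.25 to 0.60 in the 7 comparisons, and passed the threshold in the G-CSF culture without the second array of that culture (1.07).

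**Figure D4:**
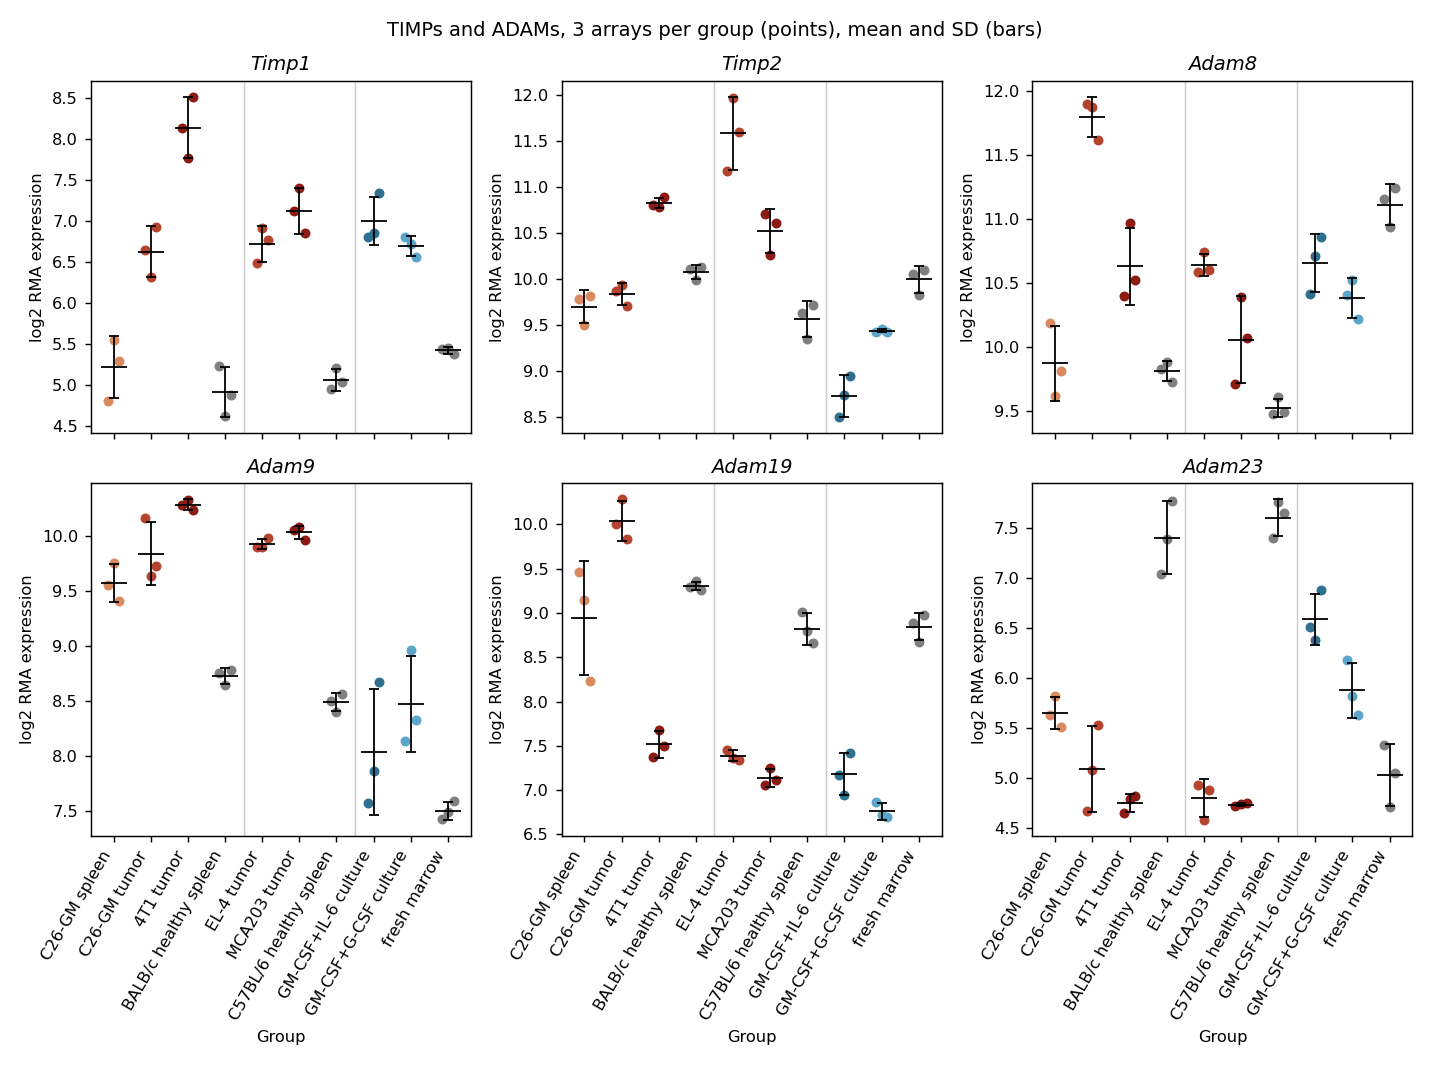
Log2 RMA expression of 2 inhibitors and 4 ADAMs on each of 3 arrays per group (points), with mean and SD (bars), in panels with axes of their own. Timp1 and Adam9 stand higher in the infiltrates than in healthy spleen (grey), Adam23 lower in all 5 tumor-bearing groups, and Adam19 lower in 4T1, EL-4 and MCA203 tumors but not in C26-GM tumors.

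The main sheddases, Adam10, which cuts Notch receptors, and Adam17, which releases TNF, were called in none of the comparisons. Adam10 read 10.40, 10.69 and 10.09 in the C26-GM spleen, against 9.45, 9.55 and 9.38 in BALB/c healthy spleen. These groups did not overlap, and the change of 0.93 (adjusted p = 0.0108) was just under 2-fold, and it was called at 1.09 without the third C26-GM spleen array. Adam10 changed by 0.29 to 0.72 in the infiltrates. Adam17 changed by -0.20 to 0.58 in the tumor-bearing groups and by 0.83 in the G-CSF culture (adjusted p = 0.000152). These values are of the chosen probe sets, and others differed. The other probe sets of Adam17 gave -0.55 and -1.33 in C26-GM tumors, beside -0.05 for the chosen one. In the G-CSF culture they gave 1.05 and 1.001. The other probe sets of Adam10 gave -0.38, -0.11 and 0.23 in C26-GM tumors, beside 0.47 for the chosen one. In the IL-6 culture they gave -1.28, -0.31 and 0.53, beside -0.41. The same probe sets gave -1.19, -1.19 and 0.25 for C26-GM tumors against the C26-GM spleen, beside -0.46. For 4T1 against C26-GM tumors they gave 1.21, 0.90 and -0.49, beside 0.25. For the IL-6 against the G-CSF culture they gave -1.57, -1.01 and 0.26, beside -0.02. On their chosen probe sets Adam10 and Adam17 stayed well above the filter on every array, between 8.29 and 10.69.

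Of 9 listed regulators of both enzymes, few moved. Tspan33, a tetraspanin partner of Adam10, fell by 1.53 in the C26-GM spleen, 2.75 in C26-GM tumors, 2.41 in 4T1 and 1.81 in MCA203, each ± 0.26. Tspan17 fell by 1.38 ± 0.29 in C26-GM tumors, at 6.18, 5.86 and 4.66 against 6.86 or more in BALB/c healthy spleen, with the third tumor array by far the lowest. Rhbdf1, a carrier of Adam17, rose by 2.37 ± 0.37 in 4T1. None of the 9 was called in EL-4. Of 16 measured substrates, 1 rose and 2 fell in the C26-GM spleen, 2 and 3 in C26-GM tumors, 3 and 4 in 4T1, 2 and 2 in EL-4, and 2 and 4 in MCA203. Trem2, a lipid receptor of macrophages, rose in all 5, by 1.13 ± 0.25 to 3.66 ± 0.25, and Hbegf, a ligand of the EGF receptor, rose by 2.54 ± 0.28 in C26-GM tumors, 3.33 ± 0.28 in 4T1 and 1.41 ± 0.28 in EL-4. Fcer2a, the low-affinity IgE receptor of B cells, fell in all 5 by 1.0 to 2.57.

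Among the other catalytic ADAMs, Adam9, a widely expressed sheddase, rose in all infiltrates. It read 10.16, 9.63 and 9.73 in C26-GM tumors and 10.29, 10.33 and 10.24 in 4T1, against 8.76, 8.64 and 8.78 in BALB/c healthy spleen. Tumor arrays lay above healthy ones throughout. It rose by 1.11 ± 0.21 (adjusted p = 0.000136), or 0.95 without the first C26-GM tumor array, and by 1.56 ± 0.21 (1.1e-06) in 4T1. It rose by 1.44 ± 0.21 in EL-4 and 1.55 ± 0.21 in MCA203. Its change in the C26-GM spleen was 0.84, under 2-fold.

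Adam8, a protease of neutrophils and monocytes, was highest in C26-GM tumors at 11.90, 11.88 and 11.62, against 9.83, 9.88 and 9.73 in BALB/c healthy spleen. The groups were nearly 2 units apart, and Adam8 rose by 1.98 ± 0.18 (adjusted p = 1.17e-09). It rose by 1.12 ± 0.18 in EL-4 (0.87 after centring on housekeeping genes), and its 0.82 in 4T1, 0.53 in MCA203 and 0.06 in the C26-GM spleen were not called. Adam15, which can bind integrins, rose by 1.52 ± 0.17 in EL-4 (adjusted p = 6.34e-08). In the C26-GM spleen Adam15 rose by 1.01 ± 0.17, at the edge of the threshold, with 0.83 without the third array of that group and 0.91 without the second BALB/c healthy spleen array. In C26-GM tumors Adam15 changed by 0.91, or 1.01 without the first tumor array. In 4T1 it changed by 0.92, or 1.04 without the third 4T1 array and 1.01 without the first BALB/c healthy spleen array. Adam28 was dim and rose in C26-GM tumors, at 5.13, 5.70 and 5.26 against 3.54, 3.36 and 3.45 in BALB/c healthy spleen (1.91 ± 0.21, adjusted p = 5.94e-08). Its other probe set gave -0.04, and in the other 3 infiltrates Adam28 was not called.

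Adam19, a sheddase of neuregulins, fell in 3 infiltrates and not in C26-GM tumors. It read 7.37, 7.68 and 7.50 in 4T1 and lay between 9.83 and 10.28 on the 3 C26-GM tumor arrays, against 9.30, 9.36 and 9.26 in BALB/c healthy spleen. In EL-4 it read 7.46, 7.37 and 7.34 and in MCA203 7.05, 7.25 and 7.11, against 9.01, 8.80 and 8.66 in C57BL/6 healthy spleen. The low groups lay below every healthy array, and the C26-GM tumor arrays lay above them. The changes were -1.79 ± 0.20 (adjusted p = 7.97e-08) in 4T1, -1.44 ± 0.20 (3.75e-06) in EL-4 and -1.69 ± 0.20 (2.87e-07) in MCA203. In C26-GM tumors the 0.73 was under 2-fold.

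The ADAMs without an active protease, Adam11, Adam22 and Adam23, which act as binding partners at the cell surface and are best known from neurons, gave most of the falls. Adam23 read 5.62, 5.82 and 5.50 in the C26-GM spleen, 4.66, 5.08 and 5.53 in C26-GM tumors and 4.65, 4.79 and 4.81 in 4T1, against 7.04, 7.39 and 7.77 in BALB/c healthy spleen. It read 4.93, 4.58 and 4.88 in EL-4 and 4.71, 4.73 and 4.75 in MCA203, against 7.39, 7.75 and 7.65 in C57BL/6 healthy spleen. All 15 arrays of tumor-bearing mice lay below all healthy arrays of their strain. The changes were -1.75 ± 0.21, -2.31 ± 0.21, -2.65 ± 0.21, -2.80 ± 0.21 and -2.87 ± 0.21, with adjusted p of 5.5e-07 or less, and a second probe set of Adam23 fell by 1.86 to 3.55. The dimmest of its 3 probe sets gave -0.26 to 0.19. Adam22 fell by 1.60 ± 0.27 in the C26-GM spleen and by 2.26 to 2.42 (each ± 0.27) in the infiltrates. Its other, dimmer probe set gave changes of -0.16 to 0.79, upward in C26-GM tumors, so the fall of Adam22 rests on 1 probe set.

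Adam11 fell in the C57BL/6 infiltrates. It read 5.21, 5.29 and 5.00 in EL-4 and 4.77, 4.67 and 4.53 in MCA203, against 6.04, 6.62 and 6.52 in C57BL/6 healthy spleen. The falls were -1.23 ± 0.20 (adjusted p = 3.96e-05) and -1.73 ± 0.20 (2.11e-07). The healthy spleens themselves differed in it. C57BL/6 healthy spleen lay above BALB/c healthy spleen (5.28, 4.92 and 4.94) by 1.35 ± 0.20 (adjusted p = 9.36e-05).

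Markers of B cells fell in the groups where Adam22 and Adam23 fell, while those of NK and T cells went both ways. Of 4 measured B cell markers 3 fell in each of the 5 tumor-bearing groups, and all 5 NK cell markers fell in the 3 BALB/c groups. In EL-4 3 of the NK markers rose and 1 fell, and in MCA203 1 rose and 0 fell. Of 6 T cell markers 3 fell in the C26-GM spleen and 4 each in C26-GM tumors and 4T1, while 3 rose in EL-4, and 3 rose and 1 fell in MCA203. Summed B cell markers were 213 to 271 in the C26-GM spleen, 84.0 to 107 in C26-GM tumors and 104 to 137 in 4T1, against 1747 to 2151 in BALB/c healthy spleen. They were 806 to 946 in EL-4 and 315 to 373 in MCA203, against 2697 to 3618 in C57BL/6 healthy spleen. The part of these cells in the falls was not tested.

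ADAMTS proteoglycanases, which cut aggrecan and versican, were called in the infiltrates of 4T1, EL-4 and MCA203 and in none of the C26-GM groups. Of 7 listed, 3 rose in 4T1, 2 in EL-4 and 2 in MCA203, with 0 falls. Adamts1 read 6.35, 5.49 and 6.37 in 4T1, against 4.73, 4.53 and 4.23 in BALB/c healthy spleen, without overlap (1.57 ± 0.27, adjusted p = 5.82e-05). It rose by 1.51 ± 0.27 in EL-4 and 1.35 ± 0.27 in MCA203, and the 0.90 in C26-GM tumors was not called. That value was called without the first BALB/c healthy spleen array (1.02), without the second C26-GM tumor array (1.04) or after centring on housekeeping genes (1.08). Adamts9 rose by 1.21 ± 0.28 in 4T1 and 1.23 ± 0.28 in EL-4, where the call was lost without the first EL-4 array (0.95). Adamts4 rose by 1.38 ± 0.20 in 4T1, where its other probe set did not move (0.08). Its 0.91 in EL-4 was not called, and was called at 1.03 without the third C57BL/6 healthy spleen array and at 1.08 without the first EL-4 array. Its 1.0 ± 0.20 in MCA203 lay on the threshold and was 0.88 to 0.95 without the second MCA203 array or without the first or second C57BL/6 healthy spleen array. Adamts12, an ADAMTS of cartilage matrix, rose in 4T1 by 1.06 ± 0.22, or 0.99 without the first 4T1 array, and its other probe set gave -0.15. Adamts5 and Adamts10 were called nowhere, nor was Adamts3, the procollagen N-proteinase measured here. The chosen probe set of Adamts5 gave -0.31 in the IL-6 and -0.38 in the G-CSF culture. Another, with a highest group mean of 5.35, gave -1.29 and -1.51 there, and the remaining ones gave -0.38 to -0.09.

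Urokinase, its receptor, thrombospondin and cathepsins were among the partners of pericellular proteolysis that rose. Of 16 measured genes of this list 4 rose and 0 fell in the C26-GM spleen, 7 rose and 1 fell in C26-GM tumors, 8 rose in 4T1, 7 rose in EL-4, and 4 rose and 1 fell in MCA203. Plau, the urokinase that makes plasmin, rose by 3.93 ± 0.30 in the C26-GM spleen, 2.99 ± 0.30 in C26-GM tumors and 4.00 ± 0.30 in 4T1, and was not called in EL-4 (0.81) or MCA203 (0.64). Its receptor Plaur rose by 1.49 ± 0.17, 2.92 ± 0.17 and 1.80 ± 0.17 in the same 3 groups. Thbs1, or thrombospondin, rose in all 5, by 2.87 ± 0.39 to 5.38 ± 0.39. The cathepsin Ctsk, a collagen-cutting cysteine protease, rose by 1.75 ± 0.36 in C26-GM tumors, 5.26 ± 0.36 in 4T1, 5.65 ± 0.36 in EL-4 and 1.94 ± 0.36 in MCA203. Reck, a membrane-anchored inhibitor of matrix metalloproteinases, fell by 1.79 ± 0.38 in C26-GM tumors and by 1.28 ± 0.38 in MCA203.

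In the marrow cultures Mmp12 changed more than any other member in any comparison. It read 12.17, 12.15 and 12.39 with GM-CSF and IL-6 and 11.72, 11.92 and 11.80 with GM-CSF and G-CSF, against 3.70, 3.34 and 3.91 in fresh marrow. Each culture array lay more than 7 units above each fresh marrow array. The changes were 8.59 ± 0.19 (adjusted p = 6.49e-22, 385-fold) and 8.17 ± 0.19 (2.35e-21, 287-fold), and both kept to within 7.97 to 8.74 under every alternative run. Mmp14 rose by 1.50 ± 0.19 and 2.16 ± 0.19, Timp1 by 1.58 ± 0.21 and 1.28 ± 0.21, and Mmp2 by 1.08 ± 0.23 and 1.86 ± 0.23, in the IL-6 and the G-CSF culture in that order. Mmp2 with IL-6 was 0.83 without the third array of that culture and 0.98 without the first fresh marrow array.

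Mmp19 rose with G-CSF, at 5.25, 6.88 and 5.53 against 3.48, 4.08 and 3.46 in fresh marrow (2.21 ± 0.51, adjusted p = 0.00132). With IL-6 it read 3.87, 3.92 and 5.36, overlapped with fresh marrow and was not called (0.71). With a term for the 4 culture arrays of low interquartile range it was called there, at 1.69 (adjusted p = 0.015). Adam23 rose with IL-6 by 1.56 ± 0.21 (adjusted p = 1.35e-06), at 6.51, 6.38 and 6.87 against 5.32, 4.71 and 5.05, and its 0.85 with G-CSF was not called. Mmp13 read 4.74, 4.83 and 6.62 with IL-6 and 5.32, 6.93 and 5.56 with G-CSF, against 6.52, 6.85 and 6.21 in fresh marrow. Its differences, -1.13 with IL-6 (adjusted p = 0.0551) and -0.59 with G-CSF, were not called. The one with IL-6 was called without the third array of that culture (-1.74), after centring on housekeeping genes (-1.28), after repeated quantile normalization (-1.27) and with dim genes left out (-1.13, adjusted p = 0.047). Adam9 read 7.57, 7.86 and 8.67 with IL-6 and 8.13, 8.96 and 8.32 with G-CSF, against 7.43, 7.49 and 7.59 in fresh marrow. With G-CSF its 0.97 was under 2-fold, and it was called without the first (1.14) or the third (1.05) array of that culture or without the third fresh marrow array (1.01). Adam19 fell in both, at 7.17, 6.94 and 7.42 with IL-6 and 6.87, 6.71 and 6.70 with G-CSF, against 8.88, 8.68 and 8.97 in fresh marrow. These groups did not overlap, and the falls were -1.67 ± 0.20 and -2.08 ± 0.20.

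Of the other inhibitors, Timp2 was called lower with IL-6 and Timp3 with G-CSF. Timp2 read 8.50, 8.74 and 8.95 with IL-6 and 9.43, 9.46 and 9.43 with G-CSF, against 10.06, 9.83 and 10.10 in fresh marrow. Both cultures lay below fresh marrow on this probe set. The fall with IL-6 was -1.27 ± 0.17 (adjusted p = 1.25e-06), or -0.98 after quantile normalization over the compared arrays. The -0.56 with G-CSF was not called. The other probe sets of Timp2 gave -1.85, -1.68, -0.91, -1.28 and 0.43 with IL-6. In the same order they gave -1.52, -1.97, -0.57, -0.82 and 0.29 with G-CSF. Timp3 fell with G-CSF by 1.19 ± 0.27 (adjusted p = 0.00121), or 0.95 without the second array of that culture, and its -0.95 with IL-6 was not called. That value was called without the first array of that culture (-1.04), without the second fresh marrow array (-1.08), after centring on housekeeping genes (-1.09), with a term for the narrow arrays (-1.30) and over the wide culture arrays alone (-1.17). Reck fell by 2.66 ± 0.38 with IL-6 and 2.75 ± 0.38 with G-CSF. Of the 10 fibroblast markers 0 rose and 4 fell with IL-6, and 0 rose and 5 fell with G-CSF. Of the 7 macrophage markers 1 rose, Adgre1, and 5 fell in each culture, and the summed level of that list was 4863 to 5090 with IL-6 and 4588 to 4756 with G-CSF, against 4732 to 7926 in fresh marrow.

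**Figure D5:**
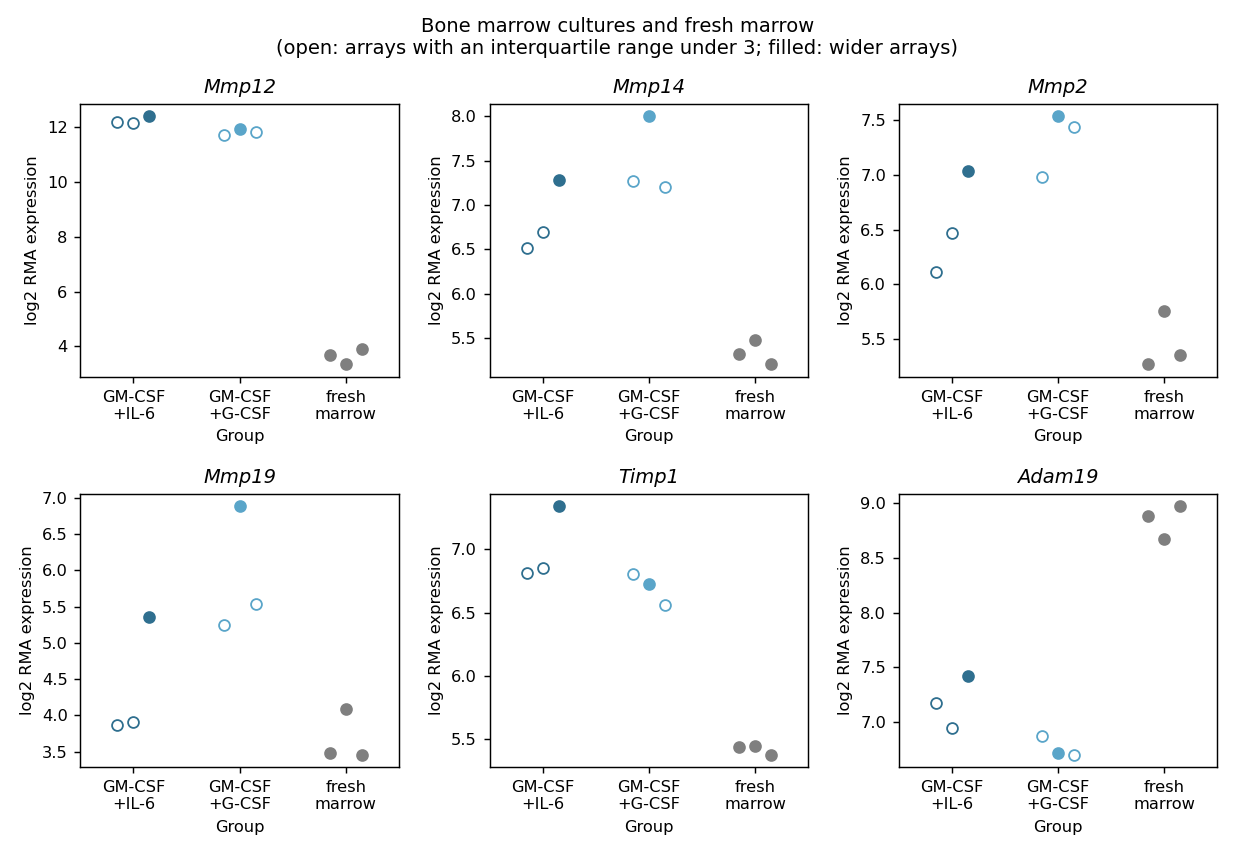
Log2 RMA expression of 6 members on each array of both cultures and of fresh marrow, in panels with axes of their own, where open points are arrays with an interquartile range under 3 and filled points wider ones. Mmp12 lies far above fresh marrow on all 6 culture arrays, while Mmp14, Mmp2 and Mmp19 are highest on the filled array of each culture.

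Few differences between the 2 cultures could be shown. No member was called between the IL-6 and the G-CSF culture by limma, beside 0.654% of all genes. An unadjusted p below 0.05 was found for 9 members, with no share of all genes given beside it. Timp2 alone had an adjusted p below 0.05, with a difference of -0.71 (adjusted p = 0.0262) that was under 2-fold. Its other probe sets gave -0.46 to 0.29. Over the mean of its probe sets Adam17 was called, at -1.09 (adjusted p = 0.0409), beside -0.59 on the chosen one. The difference of Mmp19 was -1.50 ± 0.51 and that of Mmp2 was -0.78. Without the third IL-6 array both were called, at -1.99 (adjusted p = 0.0344) and -1.03 (adjusted p = 0.0132).

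C26-GM tumors were also set against the spleen of the same model. Site and cell mixture cannot be told apart in this comparison. Called were 9 members, all upward, beside 6.16% of all genes. Mmp13 was higher by 4.20 ± 0.47, Mmp3 by 3.43 ± 0.32, Mmp14 by 2.93 ± 0.19, Mmp10 by 1.99 ± 0.23 and Adam8 by 1.93 ± 0.18. Timp1 was higher by 1.41 ± 0.21, Adam28 by 1.31 ± 0.21, Mmp2 by 1.20 ± 0.23 and Adam19 by 1.09 ± 0.20. For Mmp13 the difference was 3.60 without the third tumor array. The Adam19 call was lost without the third spleen array (0.74) or the second tumor array (0.97). Adamts1 was not called (0.92), but was without the third spleen array (1.11) or the second tumor array (1.06). Mmp12 and Mmp19, high in both organs, differed by -0.07 and -0.09 and were not called.

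Between the 2 BALB/c infiltrates 7 members were higher in 4T1 and 4 lower, beside 12.9% of all genes. After centring on housekeeping genes the split was 3 higher and 7 lower. Mmp13 (3.53 ± 0.47), Mmp14 (1.75 ± 0.19) and Timp1 (1.51 ± 0.21) were higher in 4T1 under both. Mmp12 (1.29), Mmp11 (1.29), Adamts9 (1.11) and Mmp2 (1.08) were under 2-fold after centring, at 0.96, 0.97, 0.79 and 0.75. Adamts9 was also 0.98 without the first 4T1 array and 0.96 without the second C26-GM tumor array, and Mmp2 was 0.96 without the second C26-GM tumor array. Timp2 was 0.99 higher, not called, and was called at 1.0 to 1.04 without the first or second array of either tumor. Over the mean of its probe sets Timp2 was higher by 1.67 (adjusted p = 6.08e-08), and 4 of its 5 other probe sets gave 1.85 to 3.01. Adam19 was lower in 4T1 by 2.52 ± 0.20, Adam28 by 1.90 ± 0.21, Adam8 by 1.17 ± 0.18 and Adam4 by 1.07 ± 0.28. The Adam4 difference was -0.77 without the third C26-GM tumor array and -0.99 without the first 4T1 array. Mmp19 was not called (-1.28) but was -2.20 (adjusted p = 0.000182) without the third C26-GM tumor array.

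Between the 2 C57BL/6 infiltrates 3 members were higher in EL-4 and 0 lower, beside 5.28% of all genes. These were Mmp19 (3.01 ± 0.51, adjusted p = 0.000127), Mmp12 (2.08 ± 0.19, 1.05e-08) and Timp2 (1.06 ± 0.17, 5.23e-05). Timp2 was 0.87 without the second EL-4 array and 0.93 without the second MCA203 array. After centring on housekeeping genes 2 were higher, Mmp19 and Mmp12, and 2 lower, Mmp13 (-1.40) and Mmp10 (-1.06). Before centring the difference of Mmp13, -1.34, was not called (adjusted p = 0.0525), and it was called at -1.76 (adjusted p = 0.0212) without the second EL-4 array. Mmp10 differed by -1.0 without a call and was called at -1.11 without that array, at -1.01 without the third EL-4 array and at -1.11 without the third MCA203 array. Timp3 was not called and passed the threshold without the second EL-4 array (1.14) or the second MCA203 array (1.06).

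Healthy spleens of the 2 strains differed in 2 members, Adam11 higher and Mmp12 lower in C57BL/6, beside 1.4% of all genes. Mmp12 was lower by 1.47 ± 0.19 (adjusted p = 1.1e-05). The mean C57BL/6 tumor effect differed from the mean BALB/c tumor effect in 6 members, 1 upward and 5 downward, beside 4.93% of all genes. Upward was Timp2 (1.24 ± 0.20). Downward were Mmp3 (-2.91 ± 0.39), Adam11 (-1.28 ± 0.25), Adam28 (-1.17 ± 0.26), Adam19 (-1.03 ± 0.25) and Mmp10 (-1.01 ± 0.28).

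Where a called member had another probe set with its own symbol, which was so for 59 of the calls, 49 had another that moved the same way by at least 0.5. In 1 of the 59, Adam22 in C26-GM tumors, another moved the opposite way by at least 0.5. Mmp3, Mmp10, Mmp11, Mmp12, Mmp13, Timp1, Adam8, Adam9, Adam4 and Adamts1 have 1 probe set each, so no second reading of them was at hand.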

How the data were processed

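Gene expression was measured on 30 Affymetrix MOE430 2.0 arrays in 10 groups of 3. RNA was drawn with Trizol and RNeasy columns and biotin-labelled, per the labels' protocols. The deposited values are log2 signals normalized by RMA over the arrays, per the submitters' processing notes, which give no version (not given in the sources used here), and they were used as the authors made them. RMA has no detection call, so low levels have no floor of their own, and the number of arrays, not a read depth, limits the precision. Of 45101 probe sets, 34958 carry 1 gene symbol, 932 several and 9211 none. Each of 18194 genes was read from 1 probe set, the brightest on average of those with its symbol alone. Of the probe sets with 1 symbol, 99.4% were found in the RefSeq table by gene ID.

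All 10 groups were fitted in 1 linear model in limma 3.58.1 (R 4.3.3; lmFit, contrasts, eBayes) with Benjamini-Hochberg adjustment over 18194 genes. A gene was called at an adjusted p below 0.05 and a change of at least 1 on the log2 scale. There were 13 comparisons. The model shares 1 spread over all groups, so the SE of a member is the same in each 2-group comparison. Motifs and counts were computed in Python 3.11.15 with pandas 2.3.3 and figures with matplotlib 3.10.9. The procedure was tested on simulated data. Members and lists were chosen with earlier results of these data known. Genes named were up to 10 called members each way per comparison by size, all TIMPs, a panel of members listed by role, and up to 4 called genes of each partner list. Most members whose call moved without 1 array, and the marker values, were added beside them. Alternatives left out each array, left out the third C26-GM arrays together, filtered dim genes, centred on 7 housekeeping genes, repeated quantile normalization, added a replicate block, averaged all probe sets, dropped _x_at and _s_at probe sets, fitted only the compared groups, or used a trended robust prior. A further 3, on the spread of the culture arrays, were chosen after seeing the data.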

Additional observations from a re-analysis of the deposited data

Results flagged for a closer look

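In 6 members the mean tumor effect in C57BL/6 mice (EL-4 and MCA203) differed from that in BALB/c mice (C26-GM and 4T1 tumors) by an interaction contrast in limma. The difference was -2.91 for Mmp3 (SE 0.393, adjusted p = 7.73e-06), -1.28 for Adam11 (SE 0.249, adjusted p = 0.000948), -1.17 for Adam28 (SE 0.258, adjusted p = 0.00325), -1.03 for Adam19 (SE 0.247, adjusted p = 0.00688) and -1.01 for Mmp10 (SE 0.279, adjusted p = 0.0207). It was 1.24 for Timp2 (SE 0.205, adjusted p = 0.000133). Strain and tumor model cannot be told apart in this contrast. For Adam19 the 2 BALB/c tumors went opposite ways, with 0.73 in C26-GM and -1.79 in 4T1, and for Adam11 the healthy spleens of the strains differed. Leaving out 1 array brought Mmp10 under 2-fold in 8 of 18 cases (-0.94 to -0.99) and Adam19 in 3 of 18 (-0.94 to -0.99).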

How the results depend on the processing

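Of 111 calls of members over the 13 comparisons, 79 were kept under every alternative run and none changed sign. Counts of members called moved by more than 1.5 times in 3 comparisons. EL-4 against MCA203 had 3, and 5 after repeated quantile normalization. The G-CSF culture against fresh marrow had 7, and 11 with narrow culture arrays only or after repeated quantile normalization. The IL-6 against the G-CSF culture had 0, and 1 with the mean of all probe sets or with a term for narrow arrays. It had 2 without the third IL-6 array. The cause was not tested.

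Leaving out 1 array at a time gave 5 to 6 members in the C26-GM spleen, 12 to 14 in C26-GM tumors, 16 to 19 in 4T1, 17 to 18 in EL-4, 12 to 14 in MCA203, 6 to 10 in the IL-6 culture and 7 to 10 in the G-CSF culture. It gave 9 in each case for C26-GM tumor against spleen, 10 to 12 for 4T1 against C26-GM tumors, 3 to 5 for EL-4 against MCA203, 0 to 2 between the cultures, 2 in each case between healthy spleens and 5 to 6 for the difference between strains. A model with a replicate block called as many members as without it in all 13 comparisons, 17 in 4T1 and 12 in C26-GM tumors among them. Whether equal replicate numbers mark paired arrays could not be settled with 3 arrays per group. In 0 of 12 comparisons was every same-numbered pair's correlation of deviations over 0.1, the range being -0.850 to 0.788. Both ends of that range came from the IL-6 against the G-CSF culture. For C26-GM tumor against spleen the correlations were 0.37, 0.06 and 0.47.

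Centring on 7 housekeeping genes moved the median of all genes by -0.33 to 0.22. The share of called genes that were higher was then 50.7% in C26-GM tumors (37.4% without centring), 45.7% in 4T1 (55.7%), 37.8% in EL-4 (59.3%), 33.5% in MCA203 (48.0%), 24.3% in the IL-6 culture (35.5%), 18.7% in the G-CSF culture (32.4%), 65.0% for C26-GM tumor against spleen (45.4%), 38.0% for 4T1 against C26-GM tumors (69.7%) and 35.9% between strains (57.3%). Members in C26-GM tumors were then 15 higher and 2 lower, with 10 and 2 before. In 4T1 they were 13 higher and 3 lower, in EL-4 11 and 4, in MCA203 8 and 4, and in the IL-6 culture 4 and 4, with 5 and 2 before. Averaging all probe sets brought under 2-fold Adam22 in the C26-GM spleen (-0.78) and tumors (-0.73), Adam28 in C26-GM tumors (0.94), and Adamts4 (0.73), Adamts9 (0.98) and Adamts12 (0.46) in 4T1. It did the same for Adam15 in the C26-GM spleen (0.76), Adam19 (-0.997), Adamts9 (0.90) and Timp3 (0.82) in EL-4, and Timp3 in the G-CSF culture (-0.58). Between tumors or sites it did so for Timp2 in EL-4 against MCA203 (0.55), Adam28 (-0.96), Adamts9 (0.63) and Mmp2 (0.92) in 4T1 against C26-GM tumors, and Adam19 (0.99), Adam28 (0.59) and Mmp2 (0.95) in C26-GM tumor against spleen. Between strains it did so for Adam19 (-0.72) and Adam28 (-0.47). Leaving out 1 array also made calls of Adamts12 in the G-CSF culture (1.12 without its second array) and Adam4 in C26-GM tumors (1.05 without the first). Signal limits the 31 members under 5.11, which may differ by amounts that these arrays do not show.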
